A study of Mus musculus with 8 samples.

Results

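Lysozymes and other secreted defence proteins were followed through 4 lines of mouse alveolar organoids as 10 genes: Lyz1, Lyz2, Lcn2, Slpi, Wfdc2, Chi3l1, Ltf, Reg3g, Bpifa1 and Pigr. They were taken by symbol from the 23284 genes of the count table, and all 10 had a row and passed the filter on low counts, with 12848 genes tested in all. Organoids are cultures of cells grown in a gel of matrix proteins, here 90% matrigel with a medium that the labels call FNHCAS. The cells carried an Sftpc-eGFP transgene, a green fluorescent protein (GFP) gene driven by the promoter of surfactant protein C, which marks alveolar type 2 (AT2) cells. Each line (SN2285, SN2286, SN2293 and SN2294) was sorted by fluorescence into GFP-positive and GFP-negative cells, and polyadenylated RNA of each sort gave 1 library, so that each group had n = 4. Both groups shared the transgene, the medium and the organoid line, and differed in the gate. The labels give no strain or age, and whether the lines came from separate animals is not stated, so the p-values below measure the spread between these libraries.

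Lysozymes cut the peptidoglycan of bacterial cell walls, and the mouse has a pair of neighbouring lysozyme genes, Lyz1, best known from the Paneth cells of the gut, and Lyz2, best known from macrophages and from AT2 cells. The other proteins act on the airway surface in different ways: Reg3g is a lectin that binds bacterial peptidoglycan, lactoferrin (Ltf) binds iron, lipocalin 2 (Lcn2) binds the siderophores with which bacteria collect iron, and Bpifa1 is a surfactant-like protein of the bactericidal permeability-increasing (BPI) fold family. Slpi and Wfdc2 carry the whey acidic protein (WAP) domain of small protease inhibitors, Chi3l1 is a chitinase-like protein without enzyme activity, and Pigr carries polymeric immunoglobulins across the epithelium into the airway fluid.

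The 2 lysozyme genes are close copies, which matters for every value of either gene, because a read that matches both cannot be assigned. In the GENCODE M21 transcripts (build GRCm38) their coding sequences are both 444 bases long and differ at 22 of them, an identity of 95.05%. Of the stretches of 50 bases in the Lyz1 transcript, 16.1% also occur in the Lyz2 transcript, and the share is 6.22% for stretches of 75 bases and 2.06% for 100 bases. The sources used here do not give the read length or the handling of reads with several matches. The coding stretch from base 37 to base 276, on chromosome 10, holds 19 of the differences. They are in capitals below.
Lyz1: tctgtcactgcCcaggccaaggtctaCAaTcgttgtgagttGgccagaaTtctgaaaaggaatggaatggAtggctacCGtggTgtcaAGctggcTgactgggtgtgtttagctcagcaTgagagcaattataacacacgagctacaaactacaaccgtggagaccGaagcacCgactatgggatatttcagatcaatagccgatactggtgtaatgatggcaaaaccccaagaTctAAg
Lyz2: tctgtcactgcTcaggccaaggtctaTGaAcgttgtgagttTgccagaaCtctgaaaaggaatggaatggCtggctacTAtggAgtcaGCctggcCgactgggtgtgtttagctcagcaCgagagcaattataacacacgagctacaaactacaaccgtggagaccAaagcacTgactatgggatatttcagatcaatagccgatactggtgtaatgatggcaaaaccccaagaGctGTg

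Total counts were 11202576 to 16032633 in the GFP-positive libraries and 5910344 to 15583384 in the GFP-negative ones, the shallowest being GFP-negative SN2294. Levels are given as counts scaled to library size (CPM) after a composition factor per library was applied, and group values as mean ± SD. Log2 fold changes are positive where the GFP-positive cells had more. The summed level of 10 AT2 markers was 40356 to 45976 CPM in GFP-positive and 4896 to 6706 CPM in GFP-negative libraries. Basal cell markers summed to 24.4 to 74.1 CPM against 2058 to 2598 CPM, fibroblast markers to 17.2 to 25.9 against 457 to 831 CPM, and club cell markers to 98.9 to 445 against 936 to 1699.6 CPM. Neutrophil markers stayed at or below 1.21 CPM in sum in every library, with Elane and Mpo at 0 throughout. Leukocyte markers other than Cd14 and Cd68 were near 0 in 7 libraries, which held counts of 4 to 11 of the 14 markers. The GFP-negative library of line SN2294 held counts of 13, among them Ptprc at 4.09 CPM, Csf1r at 10.9 CPM and Mrc1 at 15.6 CPM. These are bulk libraries, in which fewer cells carrying a transcript and less of it per cell cannot be told apart.

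Of the 10 genes, 2 were higher in GFP-positive cells (Chi3l1 and Slpi) and 5 were lower (Reg3g, Ltf, Pigr, Lyz2 and Wfdc2) at an adjusted p under 0.05 in edgeR's quasi-likelihood test over all genes. Lyz1, Lcn2 and Bpifa1 did not pass. Of all genes tested, 40.7% were called, 18.9% higher and 21.8% lower, so that calls are common in this comparison. The CPM values of the sorts did not overlap for 7 of the 10 genes, against 39.5% of all genes, and these were the 7 called. By size of the fold, Chi3l1 had rank 42 and Slpi rank 142 from the highest log2 fold change of 12848, and Reg3g had rank 128 from the lowest. These calls leave the pairing by line out. With line added as a term (the paired fit), 3 of the 10 genes were called higher, Lcn2 being added, and the same 5 lower. That fit called 2934 genes higher and 3234 lower of the 12848.

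**Figure D1:**
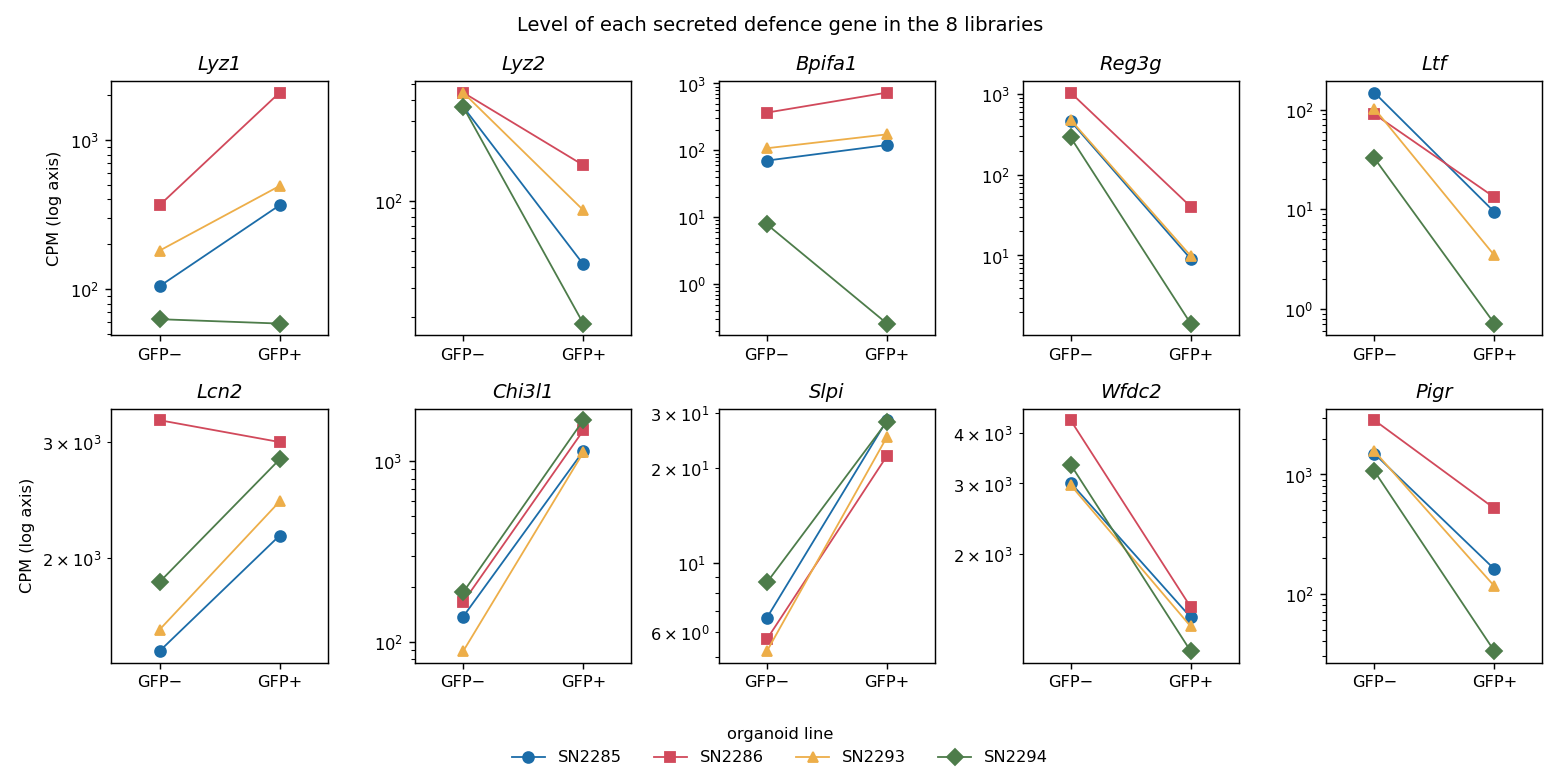
CPM of each of the 10 genes (log axis, its own range in each panel) in the GFP-negative and the GFP-positive library of each line, with a line joining the libraries of 1 organoid line. Chi3l1 and Slpi rise to the right in all 4 lines, Reg3g, Ltf, Pigr, Lyz2 and Wfdc2 fall in all 4, and Bpifa1 falls in line SN2294 alone.

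Lyz1 was at 366, 2079, 493 and 59.0 CPM in the GFP-positive libraries of lines SN2285, SN2286, SN2293 and SN2294, the order used throughout. In the GFP-negative libraries it was at 105, 366, 182 and 63.1 CPM. The sorts overlapped, and line SN2294 was low in both. The group values were 749 ± 905 and 179 ± 134 CPM, a log2 fold change of 2.06 with an SE of 1.12 (adjusted p = 0.203, edgeR). Without the GFP-positive library of line SN2286 it was 0.77, and without the GFP-negative one 2.68, neither past the test. Within lines the log2 ratio was 1.80, 2.51 and 1.44 in lines SN2285, SN2286 and SN2293 and −0.10 in line SN2294. In the paired fit the log2 fold change of Lyz1 was 1.49 (SE 0.53, adjusted p = 0.108).

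Lyz2 ran the other way. It was at 41.4, 163, 87.6 and 18.3 CPM in the GFP-positive and 366, 446, 446 and 366 CPM in the GFP-negative libraries, so that every GFP-negative library lay above every GFP-positive one. The GFP-negative values differed by 1.22-fold from the lowest to the highest, the GFP-positive values by 8.95-fold. The log2 fold change was −2.39 (SE of 0.65, adjusted p = 0.0268), and the direction was the same in 4 of 4 lines, with within-line log2 ratios of −3.14, −1.45, −2.35 and −4.31. The call was lost without any 1 of 5 libraries (adjusted p 0.0539 to 0.0680), the GFP-positive ones of lines SN2285 and SN2293 and the GFP-negative ones of lines SN2285, SN2286 and SN2293. The value was −3.05 without the GFP-positive library of line SN2286. Lyz2 is abundant in macrophages. In the GFP-negative library with leukocyte transcripts, that of line SN2294, Lyz2 was at 365.7 CPM, beside 366.2 CPM in that of line SN2285, and the log2 fold change without it was −2.44. The part of macrophages in the Lyz2 values was not tested.

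The summed counts of the pair had no shared direction between the sorts. They came to 407, 2242.5, 580.3 and 77.3 CPM in GFP-positive and 471, 812, 628 and 429 CPM in GFP-negative libraries, and the sorts overlapped. Within lines the log2 ratio of the sum was −0.21, 1.46, −0.11 and −2.47, so that line SN2286 had clearly more and line SN2294 clearly less in GFP-positive cells. With the sum in place of both genes, the log2 fold change was 0.50 (SE 0.93, adjusted p = 0.715). Its sign was not stable: in the paired fit with line as a term it was −0.28 (adjusted p = 0.820), and −0.72 once the GFP-positive library of line SN2286 was left out. The GFP-positive sums spanned a 29.0-fold range between lines and the GFP-negative sums a 1.89-fold range.

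The share of Lyz1 in the lysozyme counts did separate the sorts. Lyz1 gave 89.8%, 92.7%, 84.9% and 76.4% of the counts in the GFP-positive libraries and 22.3%, 45.1%, 28.9% and 14.7% in the GFP-negative ones. The means were 85.9 ± 7.16% and 27.7 ± 12.9%, a difference of 58.2 percentage points in the same direction in 4 of 4 lines. An exact two-sided permutation test of the logit share over 70 assignments gave p = 0.0286, the smallest that 4 against 4 libraries allow. Those assignments leave the pairing by line out and treat libraries of the same line as unrelated, although such libraries correlated. The exact sign-flip test, which keeps the pairing, did not pass 0.05. With 4 lines no exact sign-flip test can pass 0.05, so the paired test cannot decide. What the pairing shows is the shared direction in 4 of 4 lines. The widest exact 95% binomial (Clopper-Pearson) interval among the 8 shares was 73.8 to 78.8%, for the GFP-positive library of line SN2294, and these intervals cover counting error only. Within each sort the share was highest in line SN2286 and lowest in line SN2294. How many reads that match both genes entered these counts was not tested.

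**Figure D2:**
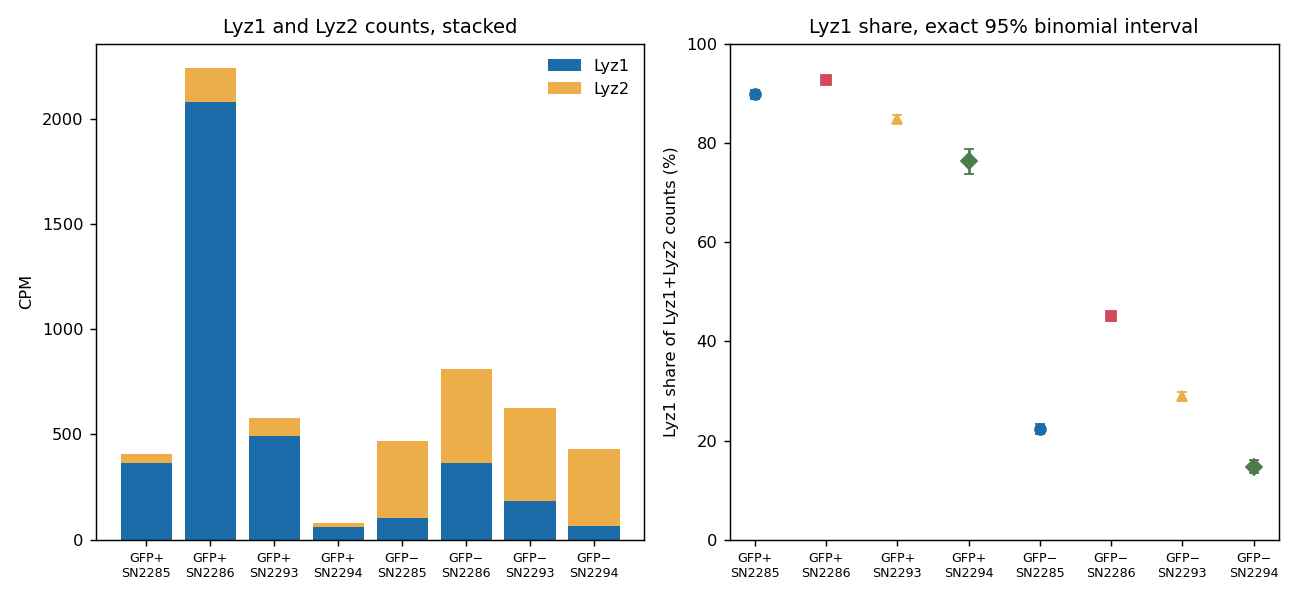
Left, Lyz1 and Lyz2 stacked as CPM in each of the 8 libraries; right, the share of Lyz1 in the counts of both genes (%), with exact 95% binomial intervals. The stack of the GFP-positive library of line SN2286 reaches 2242.5 CPM, and the lowest GFP-positive share, 76.4%, lies above the highest GFP-negative share, 45.1%.

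The promoters of the pair are close copies as well, and are shown because the balance of the pair differed between the sorts. In the RefSeq windows of 300 bases (250 before to 50 after the start, build GRCm38.p6, minus strand), Lyz1 at chr10:117292819-117293118 and Lyz2 at chr10:117282223-117282522 match at 249 of 302 aligned positions, 82.45%. Capitals mark bases that differ or are missing in the other gene.
Lyz1: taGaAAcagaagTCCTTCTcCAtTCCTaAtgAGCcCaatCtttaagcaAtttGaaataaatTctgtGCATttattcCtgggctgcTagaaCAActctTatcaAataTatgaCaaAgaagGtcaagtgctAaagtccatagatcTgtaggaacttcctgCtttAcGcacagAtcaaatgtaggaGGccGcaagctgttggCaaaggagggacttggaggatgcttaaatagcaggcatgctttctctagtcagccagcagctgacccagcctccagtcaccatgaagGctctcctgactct
Lyz2: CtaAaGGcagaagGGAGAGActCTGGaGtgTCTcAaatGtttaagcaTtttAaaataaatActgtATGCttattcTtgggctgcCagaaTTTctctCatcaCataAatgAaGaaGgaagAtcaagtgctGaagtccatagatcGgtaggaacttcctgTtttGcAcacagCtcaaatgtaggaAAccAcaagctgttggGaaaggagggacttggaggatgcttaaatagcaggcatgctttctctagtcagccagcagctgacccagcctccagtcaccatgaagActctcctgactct

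Both windows hold a match to CACTTGA, the NKX2 motif that the lung factor Nkx2-1 can bind, on the opposite strand (TCAAGTG) at bases −130 to −124 from the start. This motif, searched on both strands, occurs in 3.059% of 32851 promoters. A match to TTGCNNAA, the motif of C/EBP factors, stands in Lyz1 at bases −209 to −202 and not in the Lyz2 window. Lcn2, Slpi and Ltf hold one as well, so that 4 of the 10 genes have the motif, which occurs in 10.8% of all promoters. AGGAAG, the core of ETS factors such as Elf3, Elf5 and Ehf, is in the windows of 9 of the 10 genes, including both lysozymes, and in 35.35% of all promoters. The other searches found TATAAA in Reg3g and Bpifa1 (13.62% of all promoters), the AP-1 motif TGANTCA in Bpifa1 (7.808%) and the STAT motif TTCNNNGAA in Pigr (8.298%), where it overlaps an ETS match. A match is a string of letters and not a measured site.

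The largest fold among the 10 genes was that of Reg3g. It was at 9.08, 40.4, 9.89 and 1.43 CPM in GFP-positive and 466, 1053, 483 and 293 CPM in GFP-negative libraries. No values overlapped, and line SN2286 was highest and line SN2294 lowest in both sorts. The means were 15.2 ± 17.2 and 573 ± 331 CPM, and the fitted level was 38.7-fold lower after the positive gate (log2 fold change −5.27 with an SE of 1.02 and an adjusted p = 0.00687). Once the GFP-positive library of line SN2286 was left out, the log2 fold change was −6.43. The gap was seen in all 4 lines, with within-line log2 ratios of −5.66, −4.70, −5.59 and −7.53. The related genes Reg3a and Reg3b had no count in any library. The promoter of Reg3g and that of Chi3l1, the gene with the highest fold in the opposite direction, are printed with their motif matches in capitals: TATAAA at bases −27 to −22 of Reg3g and, on the other strand, at −161 to −156, and AGGAAG at −146 to −141 of Reg3g and 38 to 43 of Chi3l1.
Reg3g, chr6:78468825-78469124, minus strand: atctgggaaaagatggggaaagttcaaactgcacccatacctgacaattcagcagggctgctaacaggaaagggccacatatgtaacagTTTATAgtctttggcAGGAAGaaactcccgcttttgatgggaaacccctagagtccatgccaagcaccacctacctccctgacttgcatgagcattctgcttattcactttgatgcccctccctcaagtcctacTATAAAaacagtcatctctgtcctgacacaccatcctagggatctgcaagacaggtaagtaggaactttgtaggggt
Chi3l1, chr1:134181906-134182205, plus strand: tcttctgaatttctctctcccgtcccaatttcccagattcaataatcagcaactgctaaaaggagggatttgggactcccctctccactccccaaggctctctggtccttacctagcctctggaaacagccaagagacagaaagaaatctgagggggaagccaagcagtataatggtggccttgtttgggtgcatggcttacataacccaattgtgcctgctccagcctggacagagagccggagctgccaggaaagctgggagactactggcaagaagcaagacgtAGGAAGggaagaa

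Lactoferrin, like Reg3g, was lower in GFP-positive cells. Ltf was at 9.42, 13.2, 3.46 and 0.715 CPM in GFP-positive and 149, 90.5, 103 and 32.7 CPM in GFP-negative libraries, without overlap. The fitted difference was 14.7-fold (log2 fold change −3.88, SE 0.82 and adjusted p = 0.00955), with within-line log2 ratios from −5.24 in line SN2294 to −2.76 in line SN2286. Neutrophil granules and serous cells of airway glands are known sources of lactoferrin. The neutrophil markers summed to 0.394 to 1.21 CPM. Of the other gland serous markers, Bpifb1 was at 0 to 70.3 CPM in GFP-positive and 7.71 to 106 CPM in GFP-negative libraries, Sox10 and Dmbt1 were at 0 in all 8, and Lpo and Azgp1 reached 0.525 and 0.315 CPM at most. The part of either cell type in the Ltf values was not tested.

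Lcn2 was the most even of the iron-related members. It was at 2164, 2998, 2437 and 2822 CPM in GFP-positive and 1447, 3235, 1559 and 1840.4 CPM in GFP-negative libraries. The sorts overlapped because the GFP-negative library of line SN2286 had the highest value of all. The log2 fold change was 0.37 (SE 0.26, adjusted p = 0.319). In the paired fit it was 0.43 (SE 0.12) and passed with an adjusted p = 0.0142, with Lcn2 higher in the GFP-positive cells of 3 lines and lower in those of line SN2286 (log2 ratio −0.11). Without the GFP-negative library of line SN2286 it also passed, at a log2 fold change of 0.69 (adjusted p = 0.00112). This drops the library that made the sorts overlap, so the pass is no separate evidence for a rise.

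Bpifa1 varied more with line than with sort, though an F test of the line term did not pass (adjusted p = 0.149). In GFP-positive libraries Bpifa1 was at 121, 731, 174 and 0.260 CPM and in GFP-negative ones at 70.5, 367, 108 and 7.87 CPM. The values of line SN2294 rested on 4 and 50 counts, and those of line SN2286 on 7679 and 5593. Between lines the GFP-positive level spanned a 2813-fold range, while between the sorts the log2 fold change was 0.87 (SE 1.61, adjusted p = 0.713). Within lines the log2 ratio, computed with a prior of 2 counts, was 0.77, 0.99 and 0.69 in lines SN2285, SN2286 and SN2293 and −4.27 in line SN2294, so that the mean of the 4 ratios, −0.46, had the opposite sign to the fit. Without the GFP-positive library of line SN2286 the fitted value turned to −0.51. Line SN2294 alone had a ratio below 0. With it left out of the paired fit, Bpifa1 passed as higher in GFP-positive cells (log2 fold change 0.83, adjusted p = 9.81e-10). That fit drops the only line that went against the direction, so its pass is no separate evidence for a rise. With that line left out and sort as the only term, Bpifa1 did not pass (log2 fold change 0.91, adjusted p = 0.566).

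Slpi, an inhibitor of neutrophil elastase, was higher in GFP-positive cells at a low level. It was at 28.4, 21.9, 25.2 and 28.1 CPM in GFP-positive and 6.68, 5.71, 5.23 and 8.66 CPM in GFP-negative ones, 4.04-fold apart and without overlap (log2 fold change 2.01, SE 0.16, adjusted p = 1.55e-06). Wfdc2, of the same domain family, went the other way from a high level. It was at 1395, 1479, 1324 and 1149 CPM in GFP-positive and 3014, 4309.8, 2974 and 3344 CPM in GFP-negative ones, a level 2.55-fold lower in the former without overlap (log2 fold change −1.35, SE 0.12, adjusted p = 6.16e-06). Between lines the GFP-positive values spanned 1.30-fold for Slpi and 1.29-fold for Wfdc2 and the GFP-negative ones 1.66-fold and 1.45-fold, where the median gene spanned 1.23-fold in either sort.

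Chi3l1 had the largest rise. Its GFP-positive levels were 1137, 1479.7, 1117 and 1686 CPM and its GFP-negative levels 138, 166, 88.8 and 188 CPM, far apart in every line. The fitted difference was 9.35-fold (log2 fold change 3.22 with an SE of 0.26, adjusted p = 2.57e-05), and the within-line log2 ratios lay between 3.04 and 3.65. The lines kept 1 order in both sorts, with SN2294 highest, then SN2286, SN2285 and SN2293. The GFP-negative level of Chi3l1 was 12.1%, 11.2%, 7.95% and 11.2% of the GFP-positive one, and the summed AT2 markers stood at 14.6%, 11.3%, 11.0% and 14.3% by the same measure. Slpi, the other gene called higher, stood at 23.5%, 26.1%, 20.8% and 30.8%. The part of AT2 transcripts in the GFP-negative level of Chi3l1 was not tested.

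Pigr was lower in GFP-positive cells. It was at 161, 519, 116 and 32.9 CPM in GFP-positive and 1497, 2855, 1571 and 1068 CPM in GFP-negative libraries, without overlap. The means were 207 ± 215 and 1747 ± 771 CPM, and the fitted levels 8.45-fold apart (log2 fold change −3.08 with an SE of 0.88, adjusted p = 0.0326), and the direction was shared by 4 of 4 lines, with log2 ratios from −5.01 to −2.46. Leaving out the GFP-positive library of line SN2286 moved it to −4.08 on the log2 scale. Its call was lost without the same 5 single libraries as that of Lyz2 (adjusted p 0.0610 to 0.0859). Igj, the gene of the immunoglobulin J chain that Pigr binds, was at or below 0.0804 CPM in every library.

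**Figure D3:**
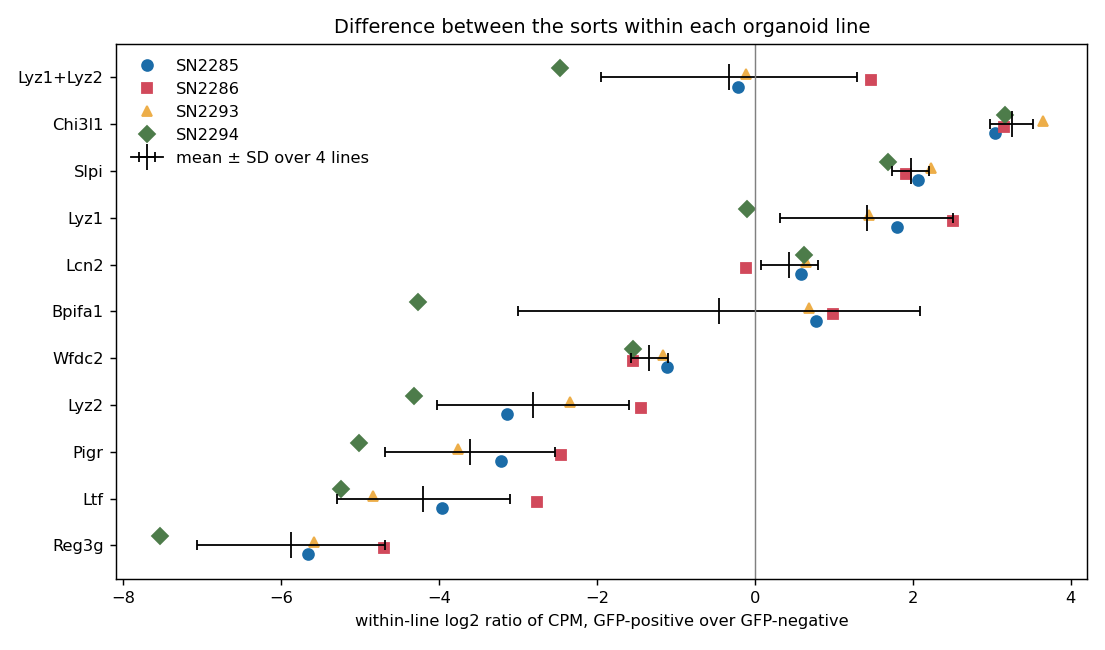
Log2 ratio of CPM, GFP-positive over GFP-negative, within each of the 4 lines (symbols) with the mean ± SD over lines (black), for the 10 genes and the lysozyme sum. Chi3l1 and Slpi lie above 0 and Wfdc2, Lyz2, Pigr, Ltf and Reg3g below 0 in all 4 lines, and line SN2294 has the lowest ratio for Reg3g, Ltf, Pigr, Lyz2 and Bpifa1.

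The 5 genes that were lower in GFP-positive cells were not at a uniform remainder. The GFP-positive level was 1.95%, 3.84%, 2.05% and 0.489% of the GFP-negative one for Reg3g, 6.33%, 14.6%, 3.36% and 2.18% for Ltf, and 10.7%, 18.2%, 7.36% and 3.08% for Pigr. For Lyz2 it was 11.3%, 36.6%, 19.6% and 4.99%. In each of these 4 genes line SN2286 kept the most and line SN2294 the least. Wfdc2, at 46.3%, 34.3%, 44.5% and 34.4%, did not follow that order, and line SN2286 kept the least. The summed basal markers stood at 2.85%, 1.18%, 1.30% and 1.18%, the fibroblast markers at 4.81%, 3.77%, 2.88% and 2.40%, and the club markers at 16.9%, 26.2%, 14.7% and 10.6%. Of these 3 sums, that of the club markers shared the line order of the 4 genes at its ends. The part of carried-over cells in the GFP-positive levels was not tested.

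Several of the genes had the same extreme lines. Line SN2286 had the highest and line SN2294 the lowest level of 7 of the 10 genes in the GFP-positive libraries, where 7.7% of all genes had that order, and of 5 in the GFP-negative libraries, against 11.3%. Lyz1, Lyz2, Reg3g, Bpifa1 and Pigr had it in both sorts, against 2.19% of all genes. This order was chosen after the values were seen, and the 5 genes are not independent of each other. In sums of squares of log2 CPM, line accounted for 87.9% of the variation of Bpifa1, 72.2% of that of Lyz1 and 57.2% of that of Lcn2, and for 3.7% each of that of Slpi and Chi3l1. The median gene had 28.1% for line and 44.5% for sort. Line has more degrees of freedom than sort, and these shares are not adjusted for that, which favours line. An F test of the line term passed for Chi3l1 alone among the 10 genes (adjusted p = 0.0141), against 5.32% of all genes, and gave an adjusted p of 0.0555 (Lcn2) to 0.633 (Lyz2) for the other 9, with 0.149 for Bpifa1 and 0.234 for Lyz1. Chi3l1 is not among the 5 genes and was highest in line SN2294.

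**Figure D4:**
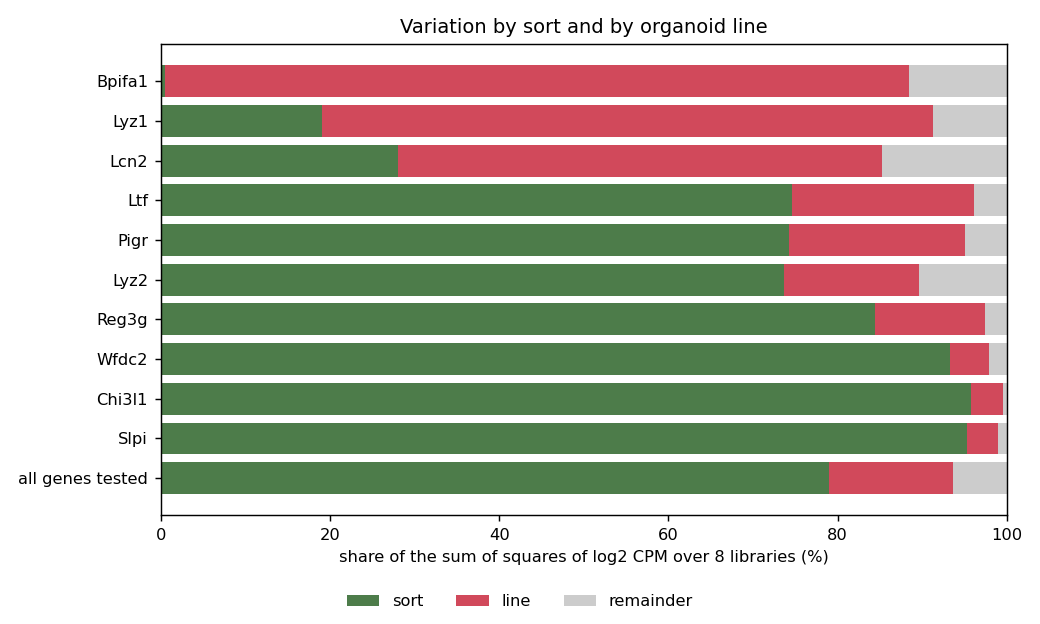
Share (%) of the variation in log2 CPM over the 8 libraries, as a sum of squares, that goes with the sort, with the organoid line and with the remainder, for each of the 10 genes and, at the bottom, summed over all genes tested. The largest share goes with line for Bpifa1, Lyz1 and Lcn2 and with sort for the other 7 genes. The shares are not adjusted for degrees of freedom, of which line has more than sort. An F test of the line term passed for none of Bpifa1, Lyz1 and Lcn2.

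The spread within a sort was wide for several members. In GFP-positive libraries the coefficient of variation was 127% for Bpifa1, 121% for Lyz1, 113% for Reg3g, 104% for Pigr, 84.5% for Ltf and 82.4% for Lyz2. It was 20.4% for Chi3l1, 14.4% for Lcn2, 11.8% for Slpi and 10.5% for Wfdc2, and the median over 9860 genes at a mean log2 CPM of 3 or more was 9.48%. Of the 6 genes with wide spread in GFP-positive cells, Lyz2 was narrow in GFP-negative ones, at 11.4%.

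Per kilobase of exon, Wfdc2 had the highest mean level of the group in both sorts. It was not highest in every GFP-positive library: Lyz1 reached 1646 CPM per kb there, and Wfdc2 1297 at most. The order in GFP-positive libraries was Wfdc2 (1173 ± 123 CPM per kb), Lcn2 (993 ± 143), Lyz1 (593 ± 717), Chi3l1 (483 ± 98.5), Bpifa1 (166 ± 210.1), Lyz2 (59.0 ± 48.7), Pigr (51.5 ± 53.4), Slpi (22.0 ± 2.59), Reg3g (7.19 ± 8.14) and Ltf (1.94 ± 1.64). All 9 pairs of neighbours in that order had overlapping values. In GFP-negative libraries it was Wfdc2 (2992 ± 546 CPM per kb), Lcn2 (770.2 ± 315), Pigr (434 ± 191), Lyz2 (309 ± 35.2), Reg3g (271 ± 156), Lyz1 (142 ± 106), Bpifa1 (89.6 ± 102), Chi3l1 (51.8 ± 15.3), Ltf (27.2 ± 13.8) and Slpi (5.57 ± 1.28). There Wfdc2 lay clear of Lcn2 and Ltf clear of Slpi, and the other 7 pairs of neighbours overlapped. Between the sorts Lyz2 moved above Lyz1, and Reg3g and Pigr moved above Chi3l1.

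Relatives, partners and upstream genes of the members were called in both directions in every list but that of the BPI fold family. Over all genes tested 18.9% were called higher and 21.8% lower, and the median was −0.01 on the log2 scale. Of the 12848 genes the paired fit called 2934 higher and 3234 lower, and scaling by library size alone 1509 and 4188. The counts of the lists are to be read beside these. Of the BPI fold family 4 of 16 genes could be tested and 2 were lower: Pltp, a phospholipid transfer protein (log2 fold change −4.74), and Lbp, the lipopolysaccharide-binding protein (−0.80), for a median of −0.90. Bpifb1, a secreted airway relative of Bpifa1, was not called (−1.01, adjusted p = 0.601) and had 7.79, 70.3, 14.1 and 0 CPM in GFP-positive and 29.0, 106, 36.2 and 7.71 CPM in GFP-negative libraries, again with line SN2286 highest and line SN2294 lowest. Bpifb5 was not called either. Of the WAP family and other secreted protease inhibitors 1 of 7 tested genes was higher and 3 were lower (median −0.31). The metalloproteinase inhibitor Timp1 (−2.42), the cystatin Cstb (−0.48) and the serine protease inhibitor Spint1 (−0.31) were lower and Spint2 (0.40) was higher. Of the chitinase family 3 of 7 genes in the table could be tested. Ctbs (0.39) was higher, Chid1 (−0.33) was lower and Ovgp1 (−0.46) was not called, for a median of −0.33, and Ctbs was no longer called when counts were scaled by library size only or when GFP-negative SN2294 was left out.

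Iron-handling and lipocalin genes were split, 4 higher and 5 lower of 12 tested (median 0.32), or 6 and 5 in the paired fit. The retinol carrier gene Rbp4 (log2 fold change 1.75) and the ferritin heavy chain gene Fth1 (0.77) were higher, while the lipocalin gene Apod (−6.00) and the iron exporter gene Slc40a1 (−1.78) were lower. Of the secreted antibacterial proteins and collectins 5 were higher and 5 lower of 13 tested (median 0.60), with 7 and 5 in the paired fit and 3 and 5 when counts were scaled by library size only. The surfactant collectin genes Sftpa1 (2.68) and Sftpd (1.95), both products of AT2 cells, were higher, and Duoxa1 (−4.27), which serves the maturation of a peroxide-producing oxidase, was lower. Itln1, the intelectin gene, had 0 counts in all GFP-positive libraries and 1.20 to 2.20 CPM in GFP-negative ones, at least 6.52-fold lower when 3 counts per library are taken as the floor; with Itln1 at that bound both list medians that include it stayed the same. Mucin and goblet cell genes were lower for 3 and higher for 1 of 8 tested (median −0.68): Muc1, the membrane mucin (2.04), was at 1412 ± 63.9 against 344 ± 63.7 CPM, and Gp2 (−6.09), Agr2 (−3.08) and Clca1 (−2.31) were lower.

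Among receptors and partners of the members 5 of 8 tested genes were lower and 1 was higher (median −0.96), or 2 in the paired fit. Lrp1, an endocytic receptor for lactoferrin among other ligands, was at 15.2 ± 6.33 against 469.8 ± 88.6 CPM (log2 fold change −4.94), and Lrp2, an endocytic receptor for lipocalin 2, at 34.7 ± 9.09 against 6.85 ± 3.17 CPM (2.42). Extl3, described as a receptor for Reg3 proteins, was lower (−0.53). Of 28 upstream cytokine receptors and transcription factors 5 were higher and 8 lower (median −0.10), where 18.9% and 21.8% of all genes were. The list counts were 7 and 11 in the paired fit and 3 and 12 when scaled by library size alone. Elf5 (1.82), Cebpa (1.39) and Il22ra1, a subunit of the interleukin-22 receptor (1.66), were higher, and Ifngr1 (−0.73) was lower. Named after their values were seen, Ehf (−1.06), Elf3 (−1.07) and Cebpb (−1.74) were lower, so that the ETS and C/EBP families each had members in both directions.

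**Figure D5:**
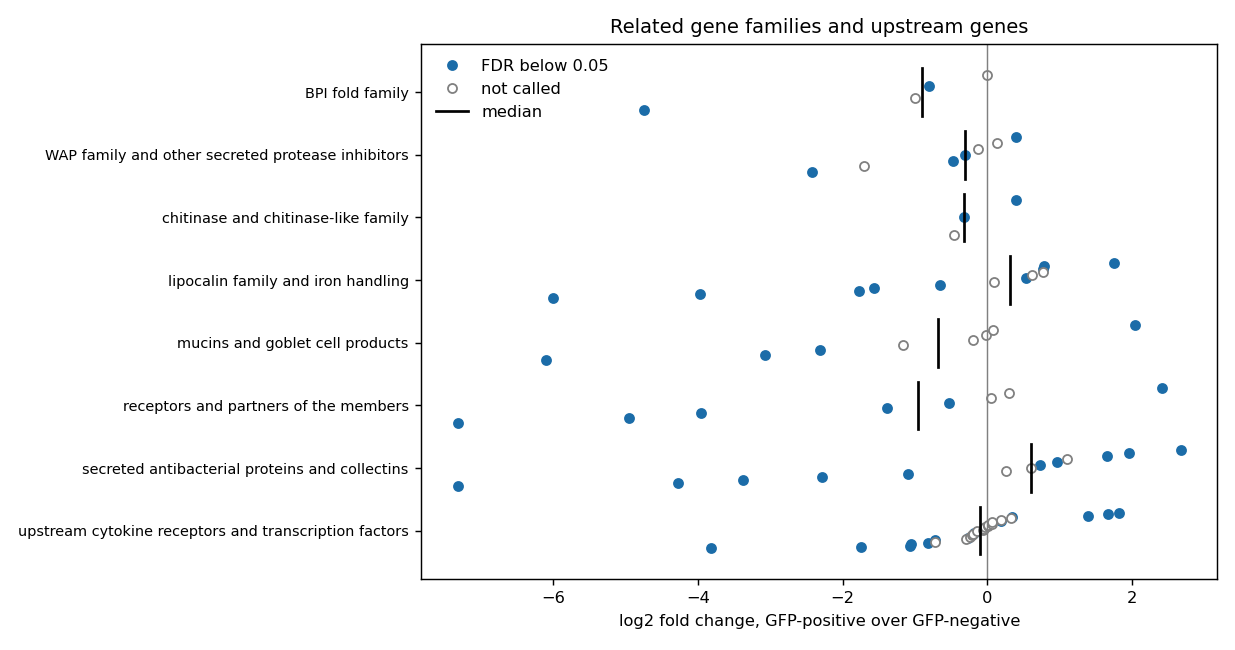
Log2 fold change, GFP-positive over GFP-negative, of the tested genes in 8 lists of relatives, partners and upstream genes, with filled points for an adjusted p under 0.05 and a black bar at the median of each list. Points lie on both sides of 0 in all lists but that of the BPI fold family, and the leftmost point of the partner and antibacterial lists is Itln1, whose fitted value comes from 0 counts in GFP-positive libraries.

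The genes whose log2 CPM followed a member most closely over the 8 libraries were found among 9850 genes by Pearson's r, given as a description since all points share libraries and sorts. For the genes split by the sort these r values were close to 1, with Acot7 for Chi3l1 (0.998), Tmem120b for Slpi (0.997), Rsf1 for Reg3g (0.996), Nfix for Wfdc2 (0.995), Anpep for Pigr (0.991), Nupr1 for Ltf (0.991) and St6gal1 for Lyz2 (0.989). Pearson's r ignores the size of a difference. The log2 fold change was −0.43 for Rsf1 against −5.27 for Reg3g, and −2.10 for St6gal1 against −2.39 for Lyz2. The pattern of Bpifa1 was nearest to those of Stat2 (0.970), Trim30d (0.964) and Trim56 (0.963). That of Lyz1 was nearest to Pex13 (0.947), Trf (0.924) and Fam46a (0.921), and that of Lcn2 to Ero1lb (0.955), Lsm11 (0.953) and Rpl36al (0.925). For the lysozyme sum they were 0610030E20Rik (0.971), Iigp1 (0.946) and Mov10 (0.938). The club cell marker Scgb3a1, chosen after its values were seen, had values of 34.5, 182, 31.7 and 1.36 CPM in GFP-positive and 55.4, 217, 88.5 and 33.0 CPM in GFP-negative libraries, so that it too was highest in line SN2286 and lowest in line SN2294. Of the other club markers tested, Scgb1a1 and Cyp2f2 had that order in both sorts, and Cbr2, Nupr1, Aldh1a7 and Gsta3 did not. Of the 7 tested, 4 were called lower in GFP-positive cells. Scgb1a1 had the higher mean there (19.4 ± 20.8 against 5.23 ± 2.31 CPM) and was not called (adjusted p = 0.187, edgeR).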

How the data were processed

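Whole-number read counts per gene symbol were deposited by the authors, 1 column per library and not normalised. The submitters' processing notes name cutadapt 1.16, STAR 2.5.3a, featureCounts, Subread and build mm9. The sources used here do not give the annotation, strand setting, read length or treatment of multiply matching reads, so overlapping and antisense genes and close copies can share reads. Each library started from 300 ng of RNA and took 14 PCR cycles, per the labels' protocols, and counts of PCR products are not independent molecules.

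Counts were analysed in R 4.3.3 with edgeR 4.0.16: filterByExpr (10 counts in at least 4 libraries, 15 in total), TMM factors, sort as the only term, and the robust two-sided quasi-likelihood test with Benjamini-Hochberg adjustment over all 12848 genes, called at 0.05. The SE is the log2 fold change divided by the square root of F. On simulated counts the test recovered 46% of 1.5-fold, 76% of 2-fold, 90% of 4-fold and 100% of 8-fold changes. It made 8 false calls among 12542 unchanged genes. The simulated libraries had no line effect, unlike the paired libraries here. Lyz1 and Lyz2 were also summed and tested in their place. Log2 CPM used a prior count of 2.

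Libraries were paired by organoid line. After removal of group means, libraries of the same line correlated at r = 0.37, 0.46, 0.32 and 0.40, and those of different lines at −0.003 at most. The paired fit with line as a term called 6168 genes, 5220 of them among the 5231 of the unpaired fit.

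Sequences came from RefSeq (GRCm38.p6) and GENCODE M21; all 10 members matched a promoter, Chi3l1 through a synonym. No gene coordinates of build mm9 were used. The members and lists were chosen with earlier results of these data known. Named are the members, up to 4 genes of each list with the smallest p, and the 3 genes nearest in pattern to each member, of which 1 is printed for members split by the sort. Alternatives were line as a term, other scalings, DESeq2 1.42.0, other filters, another prior count and leaving out libraries or lines.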

Additional observations from a re-analysis of the deposited data

Results flagged for a closer look

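For 4 results 1 line went against the other 3 in the within-line log2 ratio of GFP-positive over GFP-negative cells. The difference between that line and the others was not tested. Lyz1 stood at −0.10 in line SN2294 and above 0 in the others. Bpifa1 stood at −4.27 in line SN2294, on 4 and 50 counts, and above 0 in the others. Lcn2 stood at −0.11 in line SN2286 and above 0 in the others. The sum of Lyz1 and Lyz2 stood at 1.46 in line SN2286 and below 0 in the others. No library stood apart from the other 3 of its sort by Dixon's test in the 24 groups of 4 examined.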

How the results depend on the processing

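Chi3l1, Slpi, Reg3g and Wfdc2 kept their direction and call under all 20 alternatives, and Ltf under 19, the exception being line SN2285 left out of the paired fit (adjusted p = 0.0543). Lyz2 lost its call under 8 and Pigr under 7 of 20, all of them with libraries left out. Scaling by library size alone moved the median over all genes from −0.01 to −0.16 (log2) and left 26.5% of calls higher in GFP-positive cells (1509 higher, 4188 lower) in place of 46.5% (2430 and 2801), without changing a call among the members. With other scalings, filters and DESeq2 the members called stayed at 2 higher and 5 lower.

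With libraries left out, 2 to 4 members were called higher and 2 to 5 lower. The higher count of 4 came without line SN2294 in the paired fit, where Lyz1 (log2 fold change 1.93, adjusted p = 0.0286) and Bpifa1 passed. For both genes line SN2294 was the only line with a log2 ratio below 0. Neither gene passed with that line left out and sort as the only term (adjusted p = 0.155 and 0.566). The lower count of 2 came without line SN2285 in the paired fit, which leaves 3 lines. The lysozyme sum reversed to −0.28 in the paired fit (replicate block) and to −0.72 without the GFP-positive library of line SN2286. In the paired fit it was −0.31, −0.87 and −0.35 without lines SN2285, SN2286 and SN2293. Over all libraries and lines left out it ran from −0.87 to 0.88, and none of these values passed (adjusted p 0.366 to 0.876). The log2 fold change of Bpifa1 reversed to −0.51 without the GFP-positive library of line SN2286, and rose to 2.01 without the GFP-negative one. Lcn2 passed in the paired fit, without the GFP-negative library of line SN2286 and without line SN2286 in the paired fit (log2 fold change 0.62, adjusted p = 9.49e-05). Line SN2286, left out in part or whole there, was the only line with a log2 ratio below 0 for Lcn2. The Lyz1 share differed by 53.9 to 64.0 points with libraries left out. The cause of these changes was not tested. Without line SN2294 in both sorts, an alternative chosen after seeing the data, the members called stayed at 2 and 5. Bpifa1 in line SN2294 and Ltf and Reg3g in GFP-positive cells rested on few counts, which limits their folds.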
